A study of Mus musculus with 17 samples.

Results

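Expression in the colonic mucosa of CD4cre mice was compared with that in WT mice on day 7 of colitis induced with dextran sodium sulfate (DSS), a polymer that damages the colonic epithelium. All samples whose titles give 7 days of DSS were taken, 3 of CD4cre mice and 2 of WT mice, which made 5 of the 17 samples of the study. CD4cre mice were PPAR g flfl; CD4Cre+, so that the nuclear receptor PPAR γ, encoded by Pparg, is deleted in cells that express CD4 during thymic development, which are the later CD4+ and CD8+ T cells. WT mice lacked the Cre recombinase and are labelled only as wild-type, and both strains were in a C57BL/6J background. Mice of both groups drank 2.5% DSS, and their age and sex were also not given. The other 12 samples, 3 of each genotype on day 0 (no DSS) and on day 2 of DSS, were used to estimate the spread between samples and to read the genotype difference before DSS. Total RNA was measured on Mouse 430 2.0 arrays, and values are log2 expression of a probe set, a group of probes for 1 transcript. The sources do not say if each array stands for a single mouse or a pool, and p-values measure the spread between these samples, which may be technical in part.

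PPAR γ is a lipid-sensing transcription factor that restrains inflammatory gene expression in T cells, macrophages and epithelium. In colitis, IL-6 signals through its receptors to STAT3 in immune, stromal and epithelial cells, and SOCS3 is induced by STAT3 and limits it. CXC and CC chemokines recruit neutrophils and monocytes from the blood, while stem cells at the crypt base, marked by Lgr5, renew the epithelium.

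On day 7 CD4cre colons had higher expression of Il6, Socs3 and Hp, of the chemokines Cxcl1, Cxcl2, Cxcl5, Cxcl10 and Ccl2, of S100a8, S100a9 and Fcgr4, and of Mmp10, and lower expression of the crypt stem cell genes Lgr5 and Ascl2 and of 5 ribosomal protein genes. Of 45037 probe sets, 681 passed the test (1.51%, adjusted p under 0.05 from limma), 318 of them higher (0.706%) and 363 lower (0.806%) in CD4cre mice. Those with a single gene symbol stood for 230 genes that were higher and 293 that were lower. Differences were larger among the higher probe sets, with a median of 1.33 against -0.71 among the lower ones and -0.0092 over all probe sets. More than 2-fold differences were found for 202 of the higher and 103 of the lower probe sets, and more than 8-fold differences for 30 and 4. In all 681, the 3 CD4cre samples lay on one side of both WT samples, as they did in 10.3% of all probe sets in the higher and in 19.6% in the lower direction. An unadjusted p under 0.05 was found for 6.53% of all probe sets in the higher and for 8.65% in the lower direction. Counts of list members below are to be read beside these shares. When each array was centred on its median, 320 probe sets were higher and 604 lower. A fit of the 5 samples of day 7 alone called only 2 probe sets, both lower and without a gene symbol, so the calls rest on the spread shared with the other 12 samples. Among the genes named below, the calls of Icam1, Ascl2, Ceacam10, Plaur, Ier3, Fosl2, Junb, Cxcl5, Itgb2, Mmp10, Pfkfb3, Tjp1, Timp3 and Rps3 were lost in 15 to 24 of 27 alternative settings. The same held for the calls of Galnt5, Ephx4 and Efna4.

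**Figure D1:**
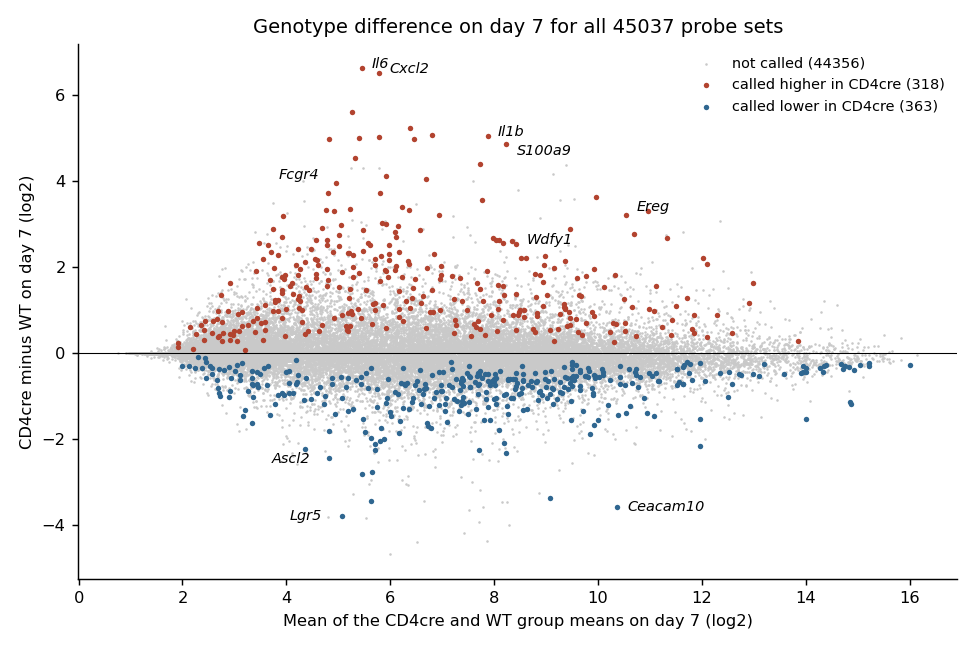
Difference between the CD4cre and WT group means on day 7 (log2) against the mean of both group means (log2) for all 45037 probe sets. Red points are the 318 probe sets called higher and blue points the 363 called lower in CD4cre mice; the rises reach 6.62 (Il6) and the falls -3.77 (Lgr5).

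CD4cre samples were less alike than WT samples. The SD between samples, averaged in quadrature over the probe sets expressed above background, was 0.511 in CD4cre and 0.217 in WT colons on day 7. In the groups of days 0 and 2 it was 0.321 to 0.408, so CD4cre colons of day 7 had the largest spread of the 6 groups. Replicate 2 of the CD4cre mice had Pearson correlations of 0.954 and 0.95 with replicates 1 and 3, which correlated at 0.983 with each other (23043 probe sets), and it was the highest CD4cre sample in 224 of the 318 higher and the lowest in 217 of the 363 lower probe sets. Over all 45037 probe sets it was the highest in 12066 and the lowest in 23020. Replicate 3 was closest to the WT samples, as the lowest CD4cre value in 229 of the 318 and the highest in 237 of the 363 lower probe sets. It correlated at 0.986 and 0.984 with WT replicates 1 and 2, and at 0.983 with CD4cre replicate 1. Replicate 1 correlated at 0.971 and 0.967 with the WT samples, above its 0.954 with replicate 2. By these correlations the CD4cre samples of day 7 did not form a group apart from the WT samples. Replicate 2 also had a Hox position score, a measure of where along the gut a sample comes from, of 0.60, against -0.15 and -0.29 in the other CD4cre samples and -0.32 and -0.27 in the WT samples. Without replicate 2 the test called 349 probe sets higher and 199 lower, and 368 of the 681 were among them. The part of gut position in the differences was not tested beyond the fit with the score as a covariate, which called 351. The background level was a log2 value of 3.34, below which 95% of the values of 98 probe sets fell that represent genes specific to organs other than the gut, and a group with all samples below it is described as at background.

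Il6 had the largest difference. Its log2 value was 8.42, 9.85 and 8.01 in CD4cre replicates 1 to 3 and 2.15 and 2.13 in the WT samples. All CD4cre samples were far above both WT samples, which were at background, so that Il6 was at least 42.9-fold higher (adjusted p = 5.22e-06). The SD of Il6 was 0.97 in CD4cre colons of day 7 and at most 0.021 in every other group, all at background. The shared spread behind this p-value is thus smaller than that of the CD4cre samples. The fit of the 5 samples of day 7 gave Il6 an adjusted p of 0.231. SDs were also uneven for Cxcl2, Chil3, Cxcl5 and Ccl2, described below. They were 2.54, 1.88, 2.80 and 1.97 in CD4cre colons of day 7 and at most 0.075, 0.03, 0.38 and 0.26 elsewhere. The limit given for Il6 also holds for these genes and for others whose SD was largest in CD4cre colons of day 7. Socs3, the feedback inhibitor of STAT3, was at 7.58, 9.71 and 6.90 in CD4cre and at 2.31 and 2.60 in WT colons on the probe set with its largest difference. Again the groups did not overlap and WT mice were at background, and the difference was at least 26.5-fold (adjusted p = 0.00131). All 3 probe sets of Socs3 passed the test, the one with the highest mean with a difference of 3.30 (SE 0.64). Haptoglobin (Hp), an acute phase protein that binds free haemoglobin, was at 8.04, 10.20 and 9.78 in CD4cre and at 4.64 and 3.88 in WT colons, a difference of 5.08 (SE 0.50, adjusted p = 0.00123).

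The promoters of Il6, Socs3, Cxcl1 and Cxcl2, the 4 genes with the largest rises, are shown as a view of the sequences upstream of the largest differences between the genotypes. Each window runs from 250 bases before to 50 bases after the start of the transcript, from RefSeq (GRCm38.p6), and capitals mark every match to the motifs searched on both strands. The motifs were GGANTTTCC for NF-kappaB, TTCNNNGAA for STAT, TTGCNNAA for C/EBP, TGANTCA for AP-1, CAAAGTNCA for HNF4 and TTTATNG for CDX.
Il6, chr5:30012864-30013163, plus strand: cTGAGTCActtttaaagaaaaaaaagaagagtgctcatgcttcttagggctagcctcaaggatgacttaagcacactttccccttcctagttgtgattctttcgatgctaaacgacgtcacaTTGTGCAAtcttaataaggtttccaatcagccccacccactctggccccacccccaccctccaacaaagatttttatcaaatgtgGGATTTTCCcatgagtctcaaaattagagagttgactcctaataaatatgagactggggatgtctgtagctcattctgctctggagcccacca
Socs3, chr11:117969317-117969616, minus strand: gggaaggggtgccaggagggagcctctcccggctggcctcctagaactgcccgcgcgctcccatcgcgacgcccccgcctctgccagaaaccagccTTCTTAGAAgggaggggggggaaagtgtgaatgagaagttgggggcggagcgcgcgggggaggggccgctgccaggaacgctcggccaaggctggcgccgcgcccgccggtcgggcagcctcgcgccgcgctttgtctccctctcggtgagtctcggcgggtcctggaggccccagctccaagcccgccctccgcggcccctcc
Cxcl1, chr5:90890995-90891294, plus strand: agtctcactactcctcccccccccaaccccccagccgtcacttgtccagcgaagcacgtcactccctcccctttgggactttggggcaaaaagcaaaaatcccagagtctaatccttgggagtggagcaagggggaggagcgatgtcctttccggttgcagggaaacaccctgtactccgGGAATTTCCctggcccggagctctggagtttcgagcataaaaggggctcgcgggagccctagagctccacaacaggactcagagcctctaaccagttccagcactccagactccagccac
Cxcl2, chr5:90903649-90903948, plus strand: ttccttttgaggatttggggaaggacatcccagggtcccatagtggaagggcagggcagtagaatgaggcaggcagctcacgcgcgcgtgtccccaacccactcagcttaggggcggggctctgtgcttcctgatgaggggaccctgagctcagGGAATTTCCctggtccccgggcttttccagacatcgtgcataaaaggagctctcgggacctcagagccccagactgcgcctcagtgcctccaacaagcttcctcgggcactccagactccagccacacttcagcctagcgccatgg
The Il6 window held AP-1, C/EBP and NF-kappaB matches that begin at -249, -128 and -43 from the start, the Socs3 window a STAT match at -154, and those of Cxcl1 and Cxcl2 an NF-kappaB match at -70 and -96. No matches overlapped in these windows. Promoters were found for 181 of the 230 genes called higher (228 windows) and for 239 of the 293 called lower (306 windows). An NF-kappaB match was present in 4.39% of the windows of genes called higher, 1.31% of those called lower and 1.25% of all 32851 windows. The shares for STAT were 12.7%, 4.25% and 8.3%, for C/EBP 9.65%, 9.15% and 10.8%, and for AP-1 7.02%, 5.23% and 7.81%. HNF4 was matched in 0.44%, 0.65% and 1.41%, and CDX in 10.96%, 8.17% and 10.91%. These matches describe the letters of the windows and were not tested.

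Among 10 measured cytokines and receptors of the IL-6 family, Il6 alone passed the test and 5 had an unadjusted p under 0.05 in the higher direction, which 6.53% of all probe sets had. Without CD4cre replicate 2 or 3, 4 members were called. Il11, another ligand of this family, had a difference of 4.30, the oncostatin M receptor Osmr one of 1.79 and the shared receptor subunit Il6st one of 1.37, none of which passed. Of 23 members of STAT3 signalling and its common targets, 7 were higher (0.706% of all probe sets were) and none lower, with a median difference of 1.28. They were Hp, Socs3, Timp1 (3.21), the transcription factors Cebpd (2.77), Cebpb (2.05) and Junb (1.95), and Lbp (2.20), a binding protein for bacterial lipopolysaccharide. Cebpd was at 11.73, 12.93 and 11.54 in CD4cre and at 9.70 and 8.90 in WT colons, with no overlap (adjusted p = 0.0176). Stat3 was at 10.71, 11.09 and 10.26 against 9.78 and 9.72, a difference of 0.93 that just missed the threshold (SE 0.21, adjusted p = 0.0548), and 1 of its 4 probe sets passed. Without CD4cre replicates 1 to 3 in turn, 4, 5 and 12 of the 23 were called, and without WT replicates 1 and 2, 3 and 1 were, with a median of 1.05 to 1.42 over these fits.

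The CXC chemokines Cxcl1, Cxcl2, Cxcl5 and Cxcl10, which act on neutrophils or T cells, were higher. Cxcl2 was at 7.49, 11.97 and 7.66 in CD4cre colons and at background in WT colons (2.59 and 2.49), a rise of at least 52.1-fold (adjusted p = 0.0110). Cxcl1 was at 8.17, 10.76 and 8.09 against 4.15 and 3.40 on the probe set with its largest difference, a difference of 5.23 (SE 0.59, adjusted p = 0.00218). CD4cre replicate 2 was above the other samples in both genes, and all CD4cre samples were above both WT samples. Cxcl5, another neutrophil chemokine, was at 6.77, 11.09 and 5.85 in CD4cre and at background in WT colons (2.91 and 2.9), at least 23.7-fold higher (adjusted p = 0.0445). Cxcl10, which attracts activated T cells, was at 9.46, 10.16 and 9.02 against 5.99 and 6.00, a difference of 3.55 (SE 0.52, adjusted p = 0.0107). These were the called members among 18 CXC chemokines and receptors, and none was lower. Without either WT sample 2 of the 18 were called. Of 21 CC chemokines and receptors, 3 were higher and none lower: the monocyte chemokines Ccl2 (4.12) and Ccl12 (2.70) and the receptor Ccr1 (1.79). Ccl2 was at 7.06, 10.25 and 6.65 in CD4cre and at 3.84 and 3.90 in WT colons, with replicate 2 again the highest (SE 0.75, adjusted p = 0.0261). Of the CC list 5 members were called without CD4cre replicate 3 and 0 without either WT sample.

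S100a8 and S100a9, which form the antimicrobial complex calprotectin of neutrophils and monocytes, were both higher. S100a9 was at 10.12, 12.32 and 9.54 in CD4cre colons and at 5.71 and 5.89 in WT colons, a difference of 4.86 (SE 0.55, adjusted p = 0.00234). S100a8 was at 9.36, 11.42 and 8.97 against 6.15 and 4.91, a difference of 4.39 (SE 0.55, adjusted p = 0.00432). Neither gene overlapped between the groups. They were the called ones among 17 neutrophil markers, of which 11 were at background in WT and 8 in CD4cre colons. Without CD4cre replicate 3, 5 markers were called. An unadjusted p under 0.05 was found for 7 of the 17 in the higher and 1 in the lower direction, against 6.53% and 8.65% of all probe sets. The groups did not overlap in 7 with CD4cre higher and in 1 with CD4cre lower, against 10.3% and 19.6%. The granule genes Mpo, Elane, Camp and Ngp were at background in both groups, while Cd177, a neutrophil surface protein, had a difference of -2.70 that did not pass.

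**Figure D2:**
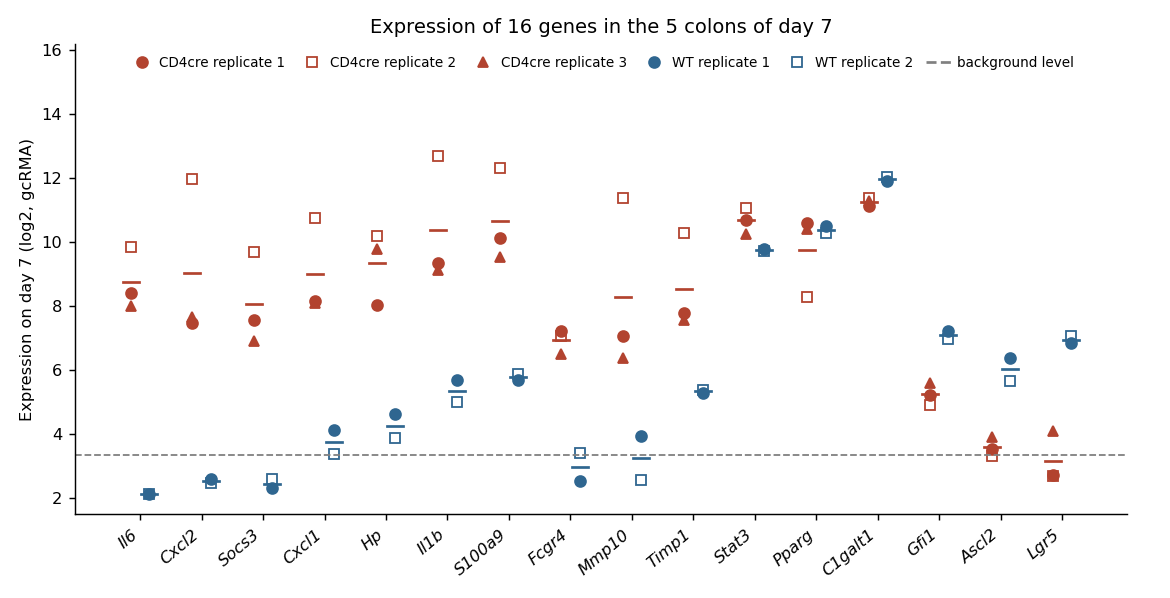
Log2 expression of 16 genes in the 3 CD4cre samples (red) and 2 WT samples (blue) of day 7; bars are group means, marker shapes are replicates and the dashed line is the background level of 3.34. For 15 genes the groups do not overlap, and for Pparg they do.

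Some markers of monocytes and macrophages, 4 of 23 measured, were higher as well. The Fc receptor Fcgr4, which binds IgG on monocytes and macrophages, was at 7.22, 7.07 and 6.50 in CD4cre and at 2.54 and 3.41 in WT colons, a difference of 3.96 (SE 0.27, adjusted p = 5.98e-05). The high-affinity receptor Fcgr1 was at 7.89, 8.66 and 7.41 against 5.62 and 5.74, a difference of 2.31 (SE 0.38, adjusted p = 0.0172). In both genes every CD4cre sample exceeded both WT samples. Chil3, a chitinase-like protein of macrophages and neutrophils, was at 6.36, 9.47 and 6.09 against background in WT colons (2.31 and 2.33), at least 15.7-fold higher (adjusted p = 0.00918). The arginine-degrading enzyme Arg1 was at 3.98, 4.02 and 3.21 against 2.10 and 2.10, at least 1.32-fold higher (adjusted p = 0.00432). This call was lost when values under background were raised to it, as were those of Cxcl5, Ptx3, Ccl12 and Batf3. The calls of Ascl2, Mmp10, Icam1, Itgb2 and other genes named here were lost in that setting too. The mannose receptor Mrc1 was higher by 1.33 (SE 0.25, adjusted p = 0.0283). Besides Fcgr4, Fcgr1, Arg1 and Mrc1 no marker of the 23 was called and none was lower. An unadjusted p under 0.05 in the higher direction was found for 17, against 6.53% of all probe sets. In 18 the groups did not overlap with CD4cre higher, against 10.3% of all probe sets. The list's median difference was 1.18, and 0.90 without CD4cre replicate 2. The count of called members was 6 without that sample, 8 and 12 without CD4cre replicates 1 and 3, and 2 without either WT sample. The mean log2 value of the list was 7.60, 8.69 and 7.53 in CD4cre and 6.49 and 6.66 in WT colons. In RNA of whole tissue, more cells of a type and more RNA per cell cannot be told apart.

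Of 16 enzymes that degrade the extracellular matrix and their inhibitors, 5 were higher in CD4cre colons and none lower, with a median difference of 1.51. Mmp10, or stromelysin 2, was at 7.07, 11.40 and 6.38 in CD4cre and at 3.95 and 2.58 in WT colons, a difference of 5.01 (SE 1.10, adjusted p = 0.0491). The aggrecanase Adamts4 was at 7.96, 10.10 and 8.06 against 5.28 and 4.03, a difference of 4.05 (SE 0.60, adjusted p = 0.0114). Replicate 2 was the highest of the CD4cre samples in both, without overlap between the groups. Timp1, an inhibitor of metalloproteinases, was at 7.79, 10.28 and 7.57 against 5.28 and 5.39, a difference of 3.21 (SE 0.64, adjusted p = 0.0336). Plaur, the urokinase receptor, and the inhibitor Timp3 had differences of 2.03 and 0.83 (adjusted p = 0.0359 and 0.0491), while the other probe sets of Timp3 did not pass. Mmp13 and Mmp3 had differences of 4.38 and 4.18 that did not pass, and Mmp7, a matrilysin, one of -1.77. The count of called higher members was 10 without CD4cre replicate 3, and 1 (with 1 lower) and 0 without WT replicates 1 and 2. Of 20 genes of fibroblasts and matrix, none passed, and the median difference was 1.25. An unadjusted p under 0.05 was found for 15, all higher, against 6.53% of all probe sets in that direction. Collagens Col1a1 and Col3a1 had differences of 1.62 and 1.22. This list had a mean log2 value of 10.82, 12.42 and 10.81 in CD4cre and 10.25 and 10.09 in WT colons, so that replicate 2 was apart from both other CD4cre samples, and the median difference without it was 0.70. Leaving out CD4cre replicates 1 to 3 in turn gave 3, 3 and 9 calls, all higher.

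**Figure D3:**
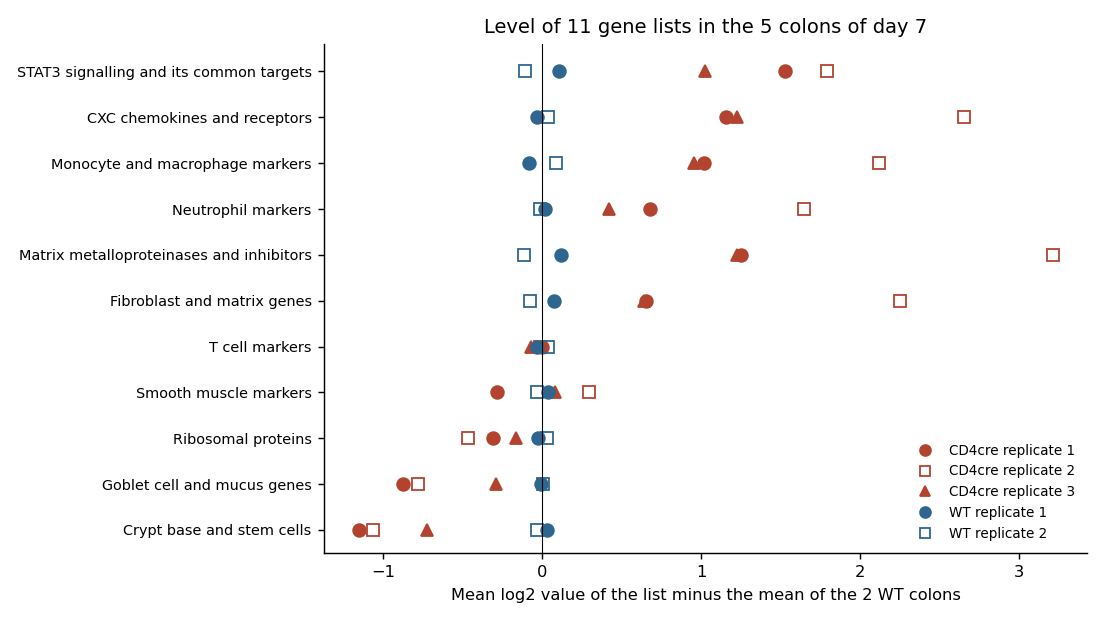
Mean log2 value of 11 gene lists in each sample of day 7, as the difference from the mean of the 2 WT samples; red marks are CD4cre and blue marks WT samples, with a shape per replicate. CD4cre replicate 2 (open red square) is highest in the 6 lists at the top, and the T cell list, with levels of 2.83 to 2.93, lies close to 0 in all samples.

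Other inflammatory groups had few called members. Il1b, a cytokine of activated macrophages, was at 9.36, 12.69 and 9.12 in CD4cre and at 5.70 and 5.01 in WT colons, a difference of 5.04 (SE 0.85, adjusted p = 0.0191). Of 16 members of the interleukin 1 family, Il1b, its receptor Il1r1 (1.56) and the adaptor Myd88 (1.01) were higher and none was lower. Myd88 was at 8.91, 9.36 and 8.73 against 7.98 and 7.99, without overlap (SE 0.13, adjusted p = 0.00586). Of 19 members of the TNF and NF-kappaB pathway, the TNF-induced gene Tnfaip2 was called (2.15). Another threshold, an unadjusted p under 0.05, was met by 11, all higher, against 6.53% of all probe sets. Tnf (1.93) and the inhibitor Nfkbia (0.96) were among them. One of 20 interferon-stimulated genes was called, Cxcl10, with a median of 1.07 over the list and 10 at an unadjusted p under 0.05. Among 17 immediate early transcription factors, Egr2 (2.50), Junb, Ier3 (1.75) and Fosl2 (1.10) were higher and none was lower. The adhesion molecules Icam1 and Itgb2 were the called 2 of 7 leukocyte extravasation markers. Selp (P-selectin, 2.97), Vcam1 (1.24) and Itgav (1.22) did not pass limma (adjusted p = 0.107, 0.0836 and 0.0767). In these genes the groups did not overlap and CD4cre was higher. Madcam1 (1.10) and Itgax (0.60) did not pass either. This list was taken from the study, which shows it from these same arrays, so its count is not independent evidence. The study reports Itgav, Vcam1 and P-selectin as significantly higher in CD4cre mice too. From these same arrays it also reports higher Il6, Il1b and Socs3 in CD4cre mice. It measured Icam1, Vcam1, Itgav, Il6 and Socs3 by real-time RT-PCR as well, which was not analysed here. Icam1 was at 6.96, 8.49 and 6.62 against 5.09 and 4.90, and Itgb2 at 8.09, 9.39 and 7.99 against 6.93 and 6.78, both without overlap. In glycolysis and hypoxia genes, 3 of 19 were higher and none lower: Adm (2.28), a vasodilator peptide, Pfkfb3 (2.08), which drives glycolysis, and Pkm (0.61), a pyruvate kinase. Ereg, an epidermal growth factor receptor ligand, was at 11.49, 13.72 and 11.22 against 9.36 and 8.5, a difference of 3.22 (SE 0.62, adjusted p = 0.0305), and the pattern recognition protein Ptx3, at 7.54, 9.90 and 5.33 against background in WT colons (3.04 and 3.05), was raised at least 19.1-fold (adjusted p = 0.0288). Lists of complement components, tight junctions, prostaglandin and leukotriene genes and dendritic cell genes had 1 called member each: C1ra (1.35) of 12, Tjp1 (0.55) of 15, the receptor Ptger3 (1.58) of 17 and the transcription factor Batf3 (0.44, at background in both groups) of 12.

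The counts of these smaller groups also depended on single samples. Without WT replicate 1 or 2, no immediate early, extravasation, TNF and NF-kappaB, complement or tight junction gene was called, and of the interleukin 1 family 2 and 1 were. Glycolysis and hypoxia genes had 0 calls without CD4cre replicate 1 or 2 or WT replicate 2, and 1 without WT replicate 1. Of the immediate early genes 2 were called without CD4cre replicate 1 or 2. C1ra was not called without CD4cre replicate 1, nor Tjp1 without replicate 1 or 2. Without CD4cre replicate 3 the calls were 7 immediate early, 6 glycolysis and hypoxia, 5 interleukin 1 family, 5 complement, 3 TNF and NF-kappaB and 2 interferon-stimulated genes, all higher.

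Of 14 crypt base and stem cell genes, Lgr5 and Ascl2 were lower in CD4cre colons. Lgr5, a receptor for R-spondins that marks these cells, was at 2.74, 2.69 and 4.11 in CD4cre and at 6.84 and 7.06 in WT colons, a difference of -3.77 (SE 0.66, adjusted p = 0.0221). Ascl2, the transcription factor that maintains them, was at 3.53, 3.33 and 3.91 against 6.40 and 5.67, a difference of -2.44 (SE 0.51, adjusted p = 0.0424). This was 1 of 3 probe sets of Ascl2, and the others, with differences of -1.55 and -0.23 and overlapping groups, did not pass. On the probe sets described, CD4cre samples were all below both WT samples, with replicate 3 the nearest in both genes. Another 6 had an unadjusted p under 0.05, so that 8 of 14 did against 8.65% of all probe sets in the lower direction, and the median difference was -0.77. Among those 6 were the Wnt pathway genes Axin2 (-0.89) and Rnf43 (-1.33) and the receptor Tnfrsf19 (-1.64). The call of Ascl2 ended in 16 of the 27 settings and that of Lgr5 in 4, and without either WT sample neither gene was called. Without CD4cre replicate 1 or 2, 1 member was called, and without replicate 3, 4 were. Of 26 proliferation genes none passed, with a median of -0.36 and 2 at an unadjusted p under 0.05.

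Some genes of goblet cells, which make mucus, were lower. Gfi1, a transcription factor of the secretory lineage, was at 5.23, 4.91 and 5.59 in CD4cre and at 7.21 and 6.96 in WT colons, a difference of -1.84 (SE 0.28, adjusted p = 0.0135). C1galt1, which builds the core of mucin O-glycans, was at 11.14, 11.37 and 11.29 against 11.92 and 12.06, a difference of -0.72 (SE 0.14, adjusted p = 0.0300) on the 1 of its 3 probe sets that passed. Both were without overlap and were the called ones of 17 goblet cell and mucus genes, of which 8 were called without CD4cre replicate 3, 1 without CD4cre replicate 1 or WT replicate 2, and 0 without WT replicate 1. The mucin-glycosylating enzyme B3gnt6 (-3.92) and the transcription factors Spdef (-2.07) and Atoh1 (-1.86) did not pass, and the mucus genes Muc2, Tff3 and Clca1 had differences of -0.21, 0.33 and 0.38. None of 14 enteroendocrine markers passed, and 5 had an unadjusted p under 0.05, all lower, with Chga at -1.78 and Tph1, which makes serotonin, at -2.51. Among the largest falls were also Ceacam10, a member of the carcinoembryonic antigen family (7.08, 8.77 and 9.90 against 12.13 and 12.18, adjusted p = 0.0371), and the small muscle protein Smpx (3.29, 3.29 and 5.18 against 7.26 and 7.44, adjusted p = 0.0127). In both, CD4cre replicate 3 was again nearest to the WT samples. The epithelial surface glycoprotein Cd24a was at 10.29, 10.57 and 11.78 against 12.89 and 13.16 (adjusted p = 0.0283), and all of its 3 probe sets were called. Absorptive colonocyte genes, of which 27 were measured, had no called member, 1 (higher) and 2 (lower) with an unadjusted p under 0.05, and a median of -0.04.

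Differences of ribosomal protein genes were small. Of 29 measured, 5 were lower (0.806% of all probe sets were) and none higher, with a median difference of -0.28. In the lower direction 23 had an unadjusted p under 0.05, against 8.65% of all probe sets. Rps6 was at 9.24, 9.13 and 9.22 in CD4cre and at 9.75 and 9.80 in WT colons, a difference of -0.58 (SE 0.10, adjusted p = 0.0188). Rps4x was at 14.86, 14.83 and 15 against 15.16 and 15.19, a difference of -0.28 (SE 0.05, adjusted p = 0.0186), and in both genes the groups did not overlap. Rpl14 (-0.86), Rpl37 (-0.53) and Rps3 (-0.30) were the other called members, and leaving out either WT sample ended all 5 calls. Without CD4cre replicate 1, 2 or 3, 3, 3 and 22 members were called. Of 26 genes of the citrate cycle and pyruvate dehydrogenase, 1 was lower, Pck1, which makes phosphoenolpyruvate. It was at 8.42, 8.61 and 9.68 in CD4cre and at 10.87 and 10.67 in WT colons (adjusted p = 0.0320), and its call ended in 12 of the 27 settings. Without CD4cre replicate 3, 9 members of this list were called lower, and without either WT sample 0 were. Another 10 had an unadjusted p under 0.05 in the lower direction, the isocitrate dehydrogenase subunit Idh3a (-0.81) and Suclg1 (-0.96) among them, and the list's median was -0.28. None of 31 respiratory chain subunits passed (median -0.30, 3 lower at an unadjusted p under 0.05), nor did any of 20 xenobiotic and cytochrome P450 enzymes (median -1.05, 1 higher and 4 lower). Without CD4cre replicate 3, 2 respiratory chain genes, 4 xenobiotic enzymes, 2 absorptive colonocyte genes, 2 enteroendocrine markers and 1 proliferation gene were called, all lower.

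**Figure D4:**
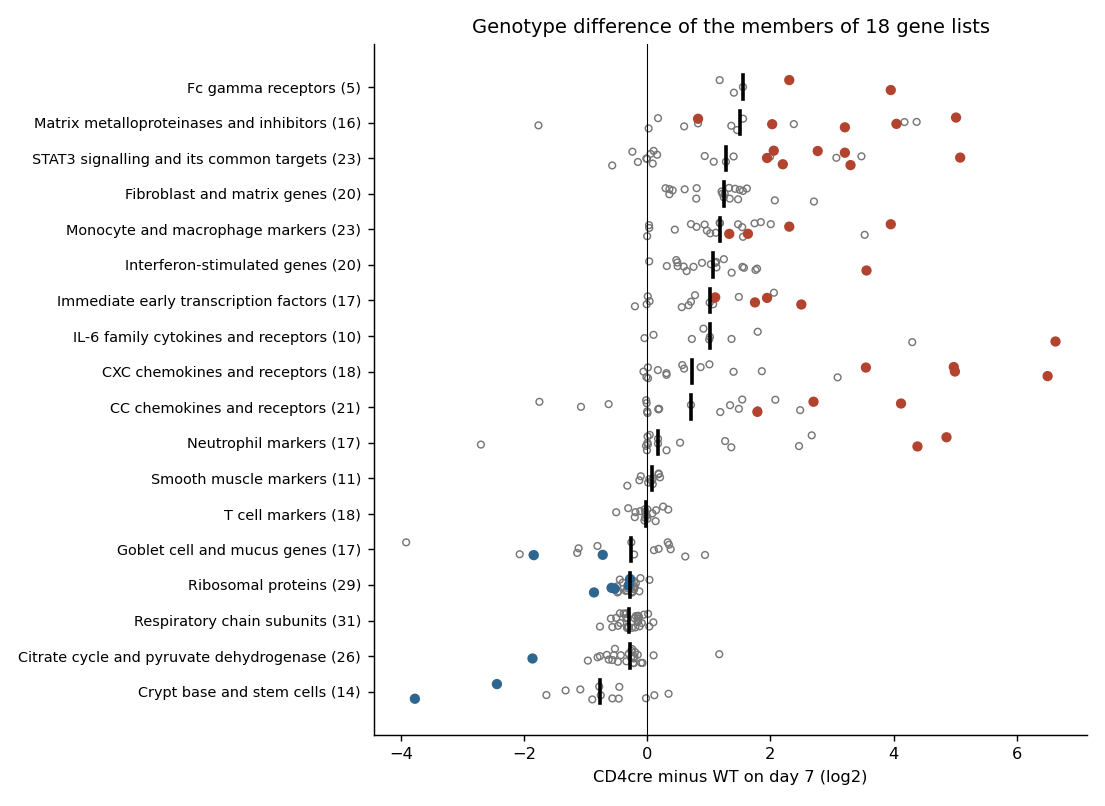
CD4cre minus WT difference on day 7 (log2) of each measured member of 18 gene lists, with the number of members in brackets; filled red and blue points passed the test as higher and lower, open points did not, and black bars are list medians. Medians run from 1.55 for Fc gamma receptors to -0.77 for crypt base and stem cells.

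T cells, the cells that carry the deletion, were hardly measured in these colons. Of 18 T cell markers, 14 were at background in WT and 11 in CD4cre mice, none passed the test (1 lower at an unadjusted p under 0.05) and the mean log2 value of the list was 2.83 to 2.9 in CD4cre and 2.86 and 2.93 in WT colons. Cd3e, Foxp3, Il10, Ifng and Il17a were at background in both groups, and Cd4 was at 3.40, 3.01 and 3.48 against 3.48 and 3.52. The other probe set of Cd4 had a mean of 2.80 (SD 1.15) in CD4cre and 1.96 (SD 0.01) in WT colons. Its difference of 0.84 did not pass limma (adjusted p = 0.402), and the groups overlapped. Pparg, which epithelial cells also express, was at 10.60, 8.28 and 10.42 in CD4cre and at 10.50 and 10.29 in WT colons, a difference of -0.63 that did not pass (SE 0.59, adjusted p = 0.749). Only replicate 2 was below the WT samples, and without it the difference was 0.12. Arrays of whole tissue therefore check neither genotype. Of 17 PPAR receptors and target genes none passed, and an unadjusted p under 0.05 was found for 3 in the higher and 1 in the lower direction. As for other cells, none of 15 B cell and plasma cell, 11 smooth muscle, 11 enteric neuron and glia and 11 endothelial markers passed, and in these lists 0, 0, 1 and 1 members had an unadjusted p under 0.05. Without CD4cre replicate 2, 2 B cell and plasma cell markers were called lower, and without WT replicate 2, 1 T cell marker was. The smooth muscle list was at 11.41, 11.99 and 11.77 in CD4cre and at 11.73 and 11.66 in WT colons, and the endothelial list at 5.64, 7.46 and 5.80 against 5.83 and 5.72. Replicate 2 was thus high in the endothelial as in the fibroblast list, and the part of this in the differences was not tested. Pancreatic enzyme genes, high in 3 samples of days 0 and 2, had medians of 2.78 to 3.15 in the 5 samples of day 7. The absorptive colonocyte list was at 10.63 to 10.84 and the goblet cell list at 10.97 to 11.85 in these 5 samples, so that the defining epithelial markers of the labelled tissue, colon, were present. The study describes the tissue as colonic mucosa. These lists do not check that, as the smooth muscle list was at 11.41 to 11.99 in the same samples.

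Before DSS, the genotypes differed in few probe sets. On day 0 the same test called 3 (0.00666%), with 2035 at an unadjusted p under 0.05. Wdfy1, an endosomal adaptor of Toll-like receptor signalling, accounted for 2 of the 3 and Hnrnph1 for the other. On day 7, Wdfy1 was at 9.88, 9.19 and 10 in CD4cre and at 7.35 and 6.94 in WT colons on one of its probe sets, a difference of 2.54 (SE 0.25, adjusted p = 0.00123), and on day 0 its difference was 3.22. The difference of these 2 values was -0.68 (adjusted p = 0.571), and 3 of its 5 probe sets were called on day 7. For the 318 probe sets higher on day 7, the median genotype difference on day 0 was 0.0049, and for the 363 lower ones it was 0.0469. CD4cre colons had a higher mean on day 7 than on day 0 in 310 of the 318 probe sets (median change 1.35) and WT colons in 197 (0.08). Of the 363 lower probe sets, CD4cre colons had a lower mean than on day 0 in 346 (median change -0.51), and WT colons a higher one in 290 (0.22).

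The genotype difference on day 7 was itself tested against that on day 0, and 63 probe sets passed (0.14%), of which 20 had a higher and 43 a lower difference on day 7. This test shares the samples of day 7 with the comparison above, and 59 of the 63 were also called there. Among the genes described above it called Il6, Socs3 and Cxcl1 (on the probe sets described above), Hp, S100a9, Fcgr4 and Arg1, all with a larger difference on day 7, and Gfi1. Il6 lay between 2.13 and 2.17 in all 6 samples of day 0. Gfi1 lay between 7.32 and 8.26 in CD4cre and between 6.07 and 6.91 in WT colons on day 0, the reverse of the order on day 7. Its genotype difference on day 0 did not pass the limma test of that day (adjusted p = 0.307). Lgr5 had a change of -4.31 in its difference from day 0 to day 7 (SE 0.88) that did not pass (adjusted p = 0.0862), and neither did Cxcl2 with 6.52 (adjusted p = 0.0761).

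**Figure D5:**
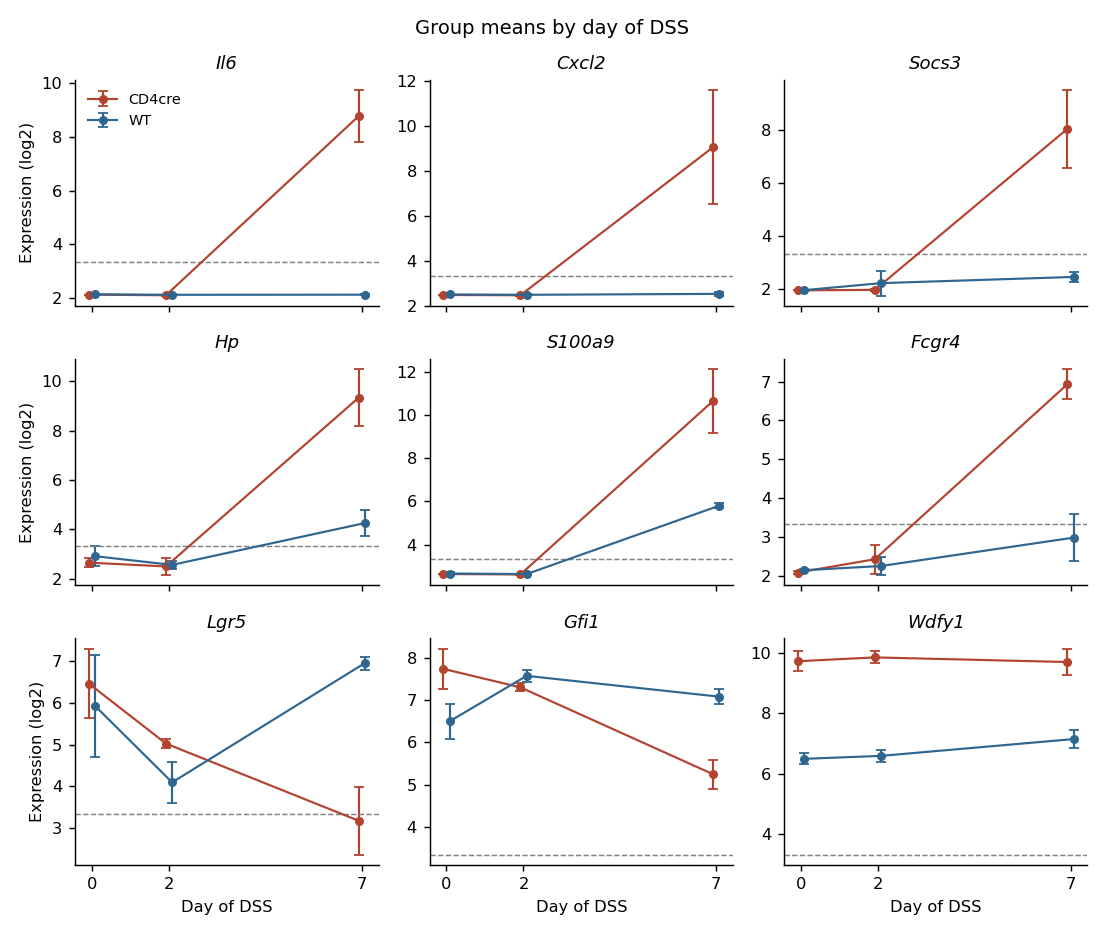
Group means (log2) of 9 genes in CD4cre (red) and WT (blue) colons against the day of DSS (0, 2 or 7); error bars are SDs over 3 samples, 2 for WT on day 7, and the dashed line is the background level. Il6 leaves background only in CD4cre colons on day 7, and the CD4cre mean of Wdfy1 lies above the WT mean on all 3 days.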

How the data were processed

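RNA of colonic mucosa from 17 samples was hybridized to Mouse 430 2.0 arrays. The authors applied gcRMA (affy package, R 2.9.0), and the deposited values are log2 expression per probe set, corrected for background and normalized over all arrays, which leaves transcripts near a floor without a clear order. The raw arrays, histology and flow cytometry were not analysed here, and the number of arrays limits the precision. Of 45101 probe sets, 64 controls were left out. Symbols came from the platform annotation: 34945 probe sets carry 1 gene, 932 several and 9160 none.

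Linear models with a mean for each of 6 groups were fitted to all 17 samples in limma 3.58.1 (R 4.3.3; 11 residual and 0.888 prior degrees of freedom), two-sided, with Benjamini-Hochberg adjustment within each comparison. The fit was tested on simulated data in which all groups had the same spread for a probe set. The uneven spreads described above were thus not covered. Where a group was at background, its values were raised to 3.34 and set against the other group's mean as measured, so that folds are lower bounds. The members and the 50 gene lists were chosen with earlier results of these data known, and lists have no test of their own. In a list each gene is read from its probe set of highest mean. Named were the 15 largest rises and falls without overlap between groups, up to 5 called members of each list, and genes that the study discusses, while other genes are list members given with their values. The main fit did not pair samples by replicate number. Alternatives were other normalizations, filters, weights, thresholds and covariates, a replicate block, a fit of the compared groups alone and leaving out samples.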

Additional observations from a re-analysis of the deposited data

Results flagged for a closer look

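Each group held at most 3 samples of day 7, so single samples were not screened for outliers. The genotype difference on day 7 differed from that on day 0, by the limma test of this difference, for 63 probe sets. Among the genes named in the text it did so for Il6 (6.63 on the log2 scale, day 7 difference minus day 0 difference), Socs3 (5.62), Hp (5.34), Cxcl1 (5.23), S100a9 (4.88), Fcgr4 (4.02), Arg1 (1.82), Gfi1 (-3.09) and, on 1 probe set each, Igfbp5 (2.99) and Eif3e (-0.38). For Gfi1 the day 0 difference was 1.25 and the day 7 difference -1.84, for Igfbp5 they were -0.69 and 2.29, and for Eif3e 0.13 and -0.25. None of these day 0 differences passed the test of day 0. For the others the day 0 difference lay between -0.26 and 0.0022, and Il6, Fcgr4, Arg1, Socs3 and S100a9 were below a log2 value of 3 in every sample of day 0.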

How the results depend on the processing

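The 681 probe sets called on day 7 became 2 in a fit of the 5 samples alone, 924 with median centring, 1044 with a filter on dim probe sets, 354 with values under background raised to it, 1327 with array quality weights, 351 with the Hox position score as a covariate, 216 without the 3 samples with pancreatic transcripts, 6836 at an unadjusted p under 0.05 and 1507 at an adjusted p under 0.1. With single samples left out the range was 311 to 3081. The count was 3081 without CD4cre replicate 3 and 311 and 317 without WT replicate 1 and 2 of day 7, and it fell by over 1.5 times without CD4cre day 0 replicate 1 (445) or 2 (401), CD4cre day 2 replicate 2 (438) or WT day 2 replicate 1 (438), 2 (424) or 3 (430). All 681 kept their sign in each of the 27 fits but the one with raised values, where 662 did (of 631 tested with the dim filter, 631), and 72 (40 higher and 32 lower) passed without each sample of day 7 in turn, Il6, Cxcl2, Hp, Chil3, S100a8, S100a9, Fcgr4, Cxcl10, Arg1, Myd88 and Wdfy1 among them. Of the 69 called probe sets named, 15 did so, 48 passed without CD4cre replicate 2 and none passed in the fit of 5 samples.

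The 3 calls on day 0 became 0 in a fit of the 6 samples of day 0, 6 with the dim filter, 8408 with array weights, 5 with the position score, 1 without the samples with pancreatic transcripts, 2035 at an unadjusted p under 0.05 and 3 to 18 with 1 sample left out, over 1.5 times the count without any sample of day 0, CD4cre day 7 replicate 2 or CD4cre day 2 replicate 2. The 63 calls of the difference between the days became 21 in a fit of 11 samples, 101, 25, 1725, 99 and 26 with the dim filter, raised values, array weights, position score and without those 3 samples, 4427 and 275 at an unadjusted p under 0.05 and an adjusted p under 0.1, and 20 to 1340 with 1 sample left out, a move of over 1.5 times for every sample but CD4cre day 2 replicate 1, WT day 0 replicate 2 and WT day 2 replicate 1. Of the 768 genes in the lists, 52 were called, 62 by any probe set, 0 in the fit of 5 samples and 13 to 169 with 1 sample left out (169 without CD4cre replicate 3, 17 and 13 without WT replicates 1 and 2). Some genes that were not called changed sign: Cd3e was -0.0196 and Ifng -0.0163 without CD4cre replicate 1, and Itgax was -0.0265 and Pparg 0.12 without CD4cre replicate 2, with ranges over the left-out samples of -0.0196 to 0.24, -0.0163 to 0.14, -0.0265 to 1.00 and -1.05 to 0.12. Foxp3 and Il10, at background in both groups, were 0 with raised values. The causes were not tested.

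Of 40 pairs of samples with the same replicate number, 15 had deviations that correlated over 0.1 (range -0.45 to 0.51). Pairs with different numbers were not compared, so this range cannot tell if the numbers pair the samples. A replicate block gave 464 calls on day 7 (245 higher and 219 lower), 3 on day 0 and 27 for the difference. Both groups were at background in 39 of the 681, whose small differences have no clear order.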

Other observations

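The following genes were chosen after their values were seen and have no test as groups. Genes of the secretory pathway were found among the probe sets called lower on day 7: the coat proteins Sec31a (-0.40), Sec16a (-0.37), Copb1 (-0.50) and Copg1 (-0.41), the retrieval receptor Kdelr2 (-0.37), Srp72 of the signal recognition particle (-0.45), and the protein disulfide isomerases Pdia5 (-1.20) and Txndc5 (-1.44 and -1.39 on its probe sets). Translation factors called lower were Eif3c (-0.36), Eif3e (-0.25), Eif3f (-0.49), Eif3k (-0.27) and Eif4b (-0.52), while Eif2s2 was higher (0.48), each on 1 probe set, and other probe sets of Eif3c, Eif3e, Eif4b and Eif2s2 did not pass. These differences are small beside those of inflammatory genes.

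Among the genes called higher were members of the interferon-induced Ifitm family, Ifitm1 (1.56), Ifitm3 (1.17) and Ifitm6 (2.76), the nucleic acid sensor adaptor Sting1 (2.62 and 2.31), the type XVIII collagen gene Col18a1 (2.68 and 2.21), the insulin-like growth factor binding proteins Igfbp4 (2.07 and 1.63) and Igfbp5 (2.68 and 2.29), and the cross-linking enzyme Tgm2 (0.89 on each of its 3 called probe sets).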
